A study of Mus musculus with 24 samples.

Results

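Glul and Ass1, a pair of genes of ammonia and arginine metabolism, were examined in brain, heart and skeletal muscle of Eya3-/- mice. Their members were all clones that carry these symbols in the platform annotation, 2 clones of Glul (2548 and 19153) and 3 of Ass1 (7392, 18983 and 19529), of 20794 clones on the array. The pair was chosen by its brain ratios, since 1 clone of each gene lay high there, so the brain values below are a description and carry no test. RNA of 4 male homozygous mutants, 13 weeks old per the labels and called W, X, Y and Z here, was hybridised against a pool of male wild-type RNA of the same organ and age. Every organ of a mouse went onto 2 arrays with exchanged dyes, so that an organ had 8 arrays and the series 24. The mutants carry a gene trap vector with a lacZ reporter in an intron of Eya3, in a line that began from embryonic stem cells of another strain and was crossed to C57BL/6. The pool held 5 or 6 animals, since the sources differ, and a range among its animal numbers covers mice W and X, so that its make-up is uncertain.

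Glul encodes glutamine synthetase, which joins ammonia to glutamate. In brain it is known as an astrocyte enzyme that clears ammonia and returns the carbon of released glutamate to neurons as glutamine. Ass1 encodes argininosuccinate synthase, which joins citrulline and aspartate, a step of the urea cycle in liver and of the recycling of citrulline to arginine, the substrate of nitric oxide synthases, in other organs. Eya3, the mutated gene, encodes a phosphatase that also acts as a coactivator of homeodomain transcription factors related to the fly gene sine oculis, whose known site is the MEF3 motif.

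The 250 bases before the start of each gene are shown because clones of both genes lay high in the same organ. They come from RefSeq, GRCm38.p6, plus strand, with Glul at chr1:153899679-153899928 and Ass1 at chr2:31470020-31470269, and both genes had an entry. Capitals mark the motifs found.
Glul: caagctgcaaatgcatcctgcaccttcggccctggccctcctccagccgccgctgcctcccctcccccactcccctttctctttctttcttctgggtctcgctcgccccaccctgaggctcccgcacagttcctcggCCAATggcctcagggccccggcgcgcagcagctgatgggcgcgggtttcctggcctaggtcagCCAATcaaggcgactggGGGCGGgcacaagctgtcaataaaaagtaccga
Ass1: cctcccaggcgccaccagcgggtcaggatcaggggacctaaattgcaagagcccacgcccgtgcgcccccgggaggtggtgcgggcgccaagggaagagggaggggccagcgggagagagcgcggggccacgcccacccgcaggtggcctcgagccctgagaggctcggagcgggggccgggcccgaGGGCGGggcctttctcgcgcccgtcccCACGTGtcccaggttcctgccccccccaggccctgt
Both strands were searched for the GC box with the letters GGGCGG, a known site of Sp factors, and for the CCAAT box, named by its letters and a known site of nuclear factor Y. The search also took the TATA box in the form TATAAA, the palindromic E box written as CACGTG and the MEF3 core in the form TCAGGTT, and no matches overlapped. The Glul sequence held the GC box from 33 to 28 bases before the start and the CCAAT box from 113 to 109 and from 50 to 46. The Ass1 sequence held the GC box from 63 to 58 bases before the start and the E box from 36 to 31. The GC box stood in 32.7% of 32851 promoters of this length, the CCAAT box in 33.8% and the E box in 6.02%. The TATA box, held by 12.4% of promoters, and the MEF3 core, held by 3.49%, were in neither sequence. The share of G and C was 64.8% for Glul and 75.6% for Ass1, against a median of 52.4%. These matches describe letters only.

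The deposited values are log2 ratios, already turned so that both dye orientations run the same way, and the direction is likely mutant over pool. An array lacked a value for 4.75% to 24.5% of its clones. The dye-swapped arrays of a mouse hardly correlated over the clones, which are not independent, with a median Pearson's r of -0.03 for brain, -0.06 for heart and -0.04 for muscle. The file holds ratios without signals, so the identity of an organ could not be checked from the level of its markers, and no source used here says whether a spot lay above background. The Eya3 clone had a value on both arrays of a mouse only in heart, 0.02 in mouse W and -0.38 in mouse Y, and did not check the genotype. In whole organs, fewer cells of a type and less RNA per cell cannot be told apart.

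Glul clone 19153 lay above the pool in brain on every array and near it in heart and muscle. With the mutant in Cy3, its brain arrays gave log2 ratios of 1.30 in mouse W, 1.72 in X, 1.49 in Y and 1.61 in Z. With the mutant in Cy5, they gave 0.48 in W, 0.85 in X, 0.46 in Y and 1.45 in Z. All 8 arrays were above 0, and in every mouse the Cy3 array was the higher of the pair. The mouse means of 0.89 in W, 1.29 in X, 0.97 in Y and 1.53 in Z averaged 1.17 ± 0.30 (SD, n = 4 mice), 2.25-fold above the pool. Of 15846 clones measured in at least 3 brain mice, 287 (1.81%) had a higher mean.

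**Figure D1:**
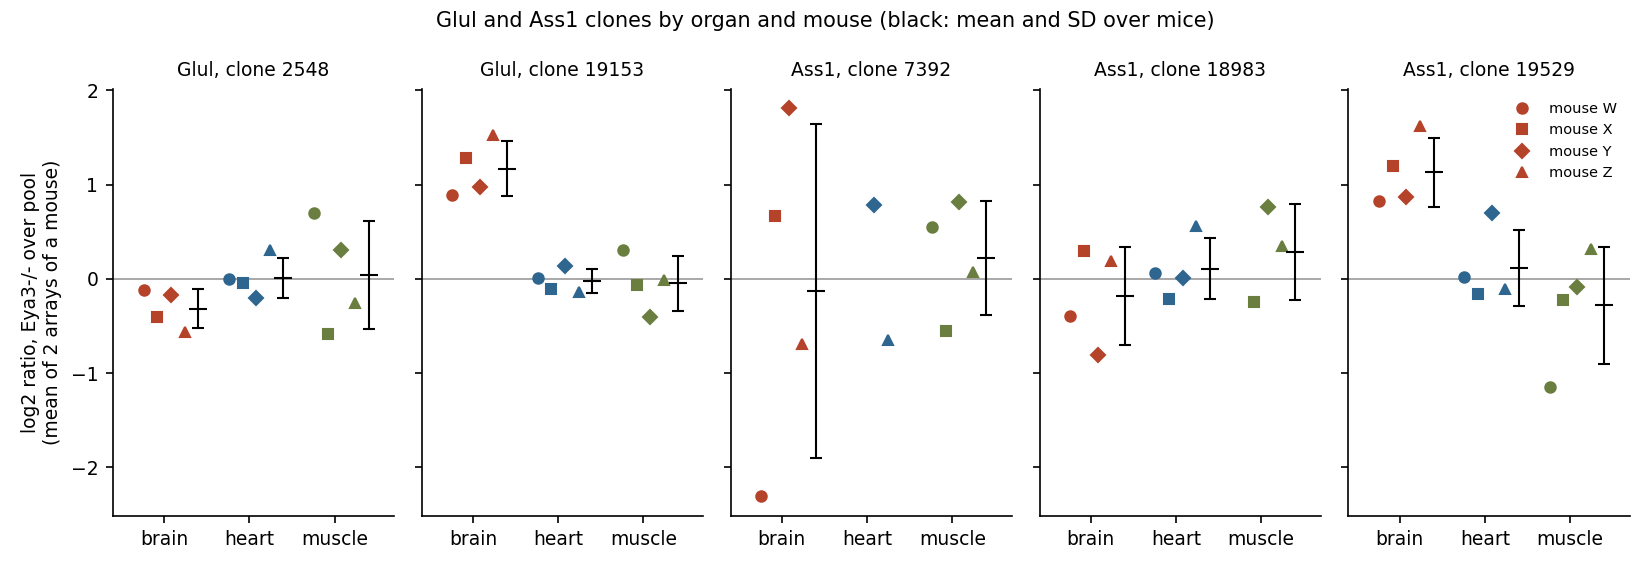
Log2 ratio of each Glul and Ass1 clone (panels) in brain, heart and muscle, 1 point per mouse (mean of 2 dye-swapped arrays, shape gives the mouse) with the mean and SD over mice in black where at least 3 mice had a value. In brain, Glul clone 19153 and Ass1 clone 19529 lie between 0.83 and 1.62 in all 4 mice, while their points in heart and muscle lie on both sides of 0.

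The high ratio of this Glul clone in brain was not seen in heart. The heart arrays with the mutant in Cy3 gave -0.02 in W, 0.24 in X, 0.70 in Y and 0.01 in Z, and those with the mutant in Cy5 gave 0.04, -0.46, -0.42 and -0.28 in the same order. Of these arrays 4 lay above 0 and 4 below. The heart mouse means were 0.01, -0.11, 0.14 and -0.13, with a mean of -0.02 ± 0.13 (SD, n = 4 mice) and a 95% confidence interval of -0.41 to 0.36 (limma, adjusted p = 0.969).

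Skeletal muscle gave a like picture with a larger dye difference. The Cy3 arrays gave 0.78 in W, 0.51 in X, -0.01 in Y and 0.36 in Z, and the Cy5 arrays gave -0.17, -0.65, -0.81 and -0.40. Thus the mean over the mice was 0.41 with the mutant in Cy3 and -0.51 with the mutant in Cy5, opposite in sign. The mouse means of 0.30, -0.07, -0.41 and -0.02 gave -0.05 ± 0.29 (SD, n = 4 mice; 95% confidence interval -0.55 to 0.46; limma, adjusted p = 0.996). Within each mouse, brain exceeded heart by 0.83 to 1.66 (mean 1.19 ± 0.40, SD, n = 4) and muscle by 0.59 to 1.55 (mean 1.22 ± 0.43, SD, n = 4). Heart minus muscle, fitted without pairing the organs of a mouse, was 0.02 (95% confidence interval -0.49 to 0.54; limma, adjusted p = 0.988).

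Glul clone 2548, the other clone of glutamine synthetase, went the other way in brain. Its Cy3 arrays gave -0.02 in W, 0.06 in X, -0.21 in Y and -0.28 in Z, and its Cy5 arrays gave -0.22, -0.87, -0.14 and -0.85. All brain arrays but 1 were below 0. The mouse means of -0.12, -0.40, -0.17 and -0.56 averaged -0.31 ± 0.21 (SD, n = 4 mice). The ranges of the Glul clones in brain, -0.56 to -0.12 and 0.89 to 1.53, did not overlap, and the clones did not agree there. Within a mouse, clone 19153 exceeded clone 2548 in brain by 1.01 to 2.09 (mean 1.48 ± 0.50, SD, 4 of 4 mice).

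In heart the mouse means of clone 2548 were 0.00 in W, -0.04 in X, -0.21 in Y and 0.30 in Z. Their mean was 0.01 ± 0.21 (SD, n = 4; 95% confidence interval -0.41 to 0.43; limma, adjusted p = 0.988), with mice on both sides of 0. In muscle they were 0.70, -0.58, 0.31 and -0.26, a wider spread than in the other organs, with a mean of 0.04 ± 0.57 (SD, n = 4; 95% confidence interval -0.65 to 0.74; limma, adjusted p = 0.997). Clone 19153 minus clone 2548 was -0.04 ± 0.32 in heart (exact two-sided sign-flip test, p = 0.75) and -0.09 ± 0.56 in muscle (exact p = 0.875, n = 4 mice). With 4 mice the smallest p this exact test can give is 2 of 16 sign flips, so it cannot pass 0.05. Over the 6 clone pairs tested in heart and muscle by the exact test every adjusted p was 0.875. So in heart and muscle no difference between the Glul clones was detectable with these mice, and in brain their difference is the basis on which the pair was chosen and is given without a test.

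Ass1 clone 19529 resembled Glul clone 19153 in brain and had the closer dye-swapped pairs. Its Cy3 brain arrays gave 1.02 in W, 1.22 in X, 0.86 in Y and 1.39 in Z, and its Cy5 arrays gave 0.63, 1.18, 0.88 and 1.85. All 8 were above 0, and the mean was 1.12 in Cy3 and 1.13 in Cy5. The mouse means of 0.83, 1.20, 0.87 and 1.62 averaged 1.13 ± 0.37 (SD, n = 4 mice), 2.19-fold above the pool, with 313 of 15846 clones (1.98%) higher. The median difference between the arrays of a mouse was 0.22 in size for this clone and 0.85 for Glul clone 19153.

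The heart and muscle values of this Ass1 clone lay on both sides of 0. In heart the mouse means were 0.02 in W, -0.17 in X, 0.70 in Y and -0.10 in Z, with a mean of 0.11 ± 0.40 (SD, n = 4; 95% confidence interval -0.42 to 0.64; limma, adjusted p = 0.899). In muscle they were -1.15, -0.22, -0.08 and 0.32, with a mean of -0.28 ± 0.62 (SD, n = 4; 95% confidence interval -1.02 to 0.45; limma, adjusted p = 0.954). Mouse Y was the highest in heart and mouse W the lowest in muscle, in both cases on both arrays (0.84 and 0.57 for Y, -1.13 and -1.17 for W). Without mouse W the muscle mean was 0.0063, and without mouse Y the heart mean was -0.08. Within each mouse, brain exceeded heart by 0.17 to 1.73 (mean 1.02 ± 0.68, SD, n = 4) and muscle by 0.95 to 1.97 (mean 1.41 ± 0.42, SD, n = 4). Heart minus muscle, again fitted without pairing, was 0.40 (95% confidence interval -0.43 to 1.22; limma, adjusted p = 0.885).

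The other Ass1 clones were not high in brain. Clone 18983 had brain means of -0.40 in W, 0.30 in X, -0.81 in Y and 0.19 in Z, a mean of -0.18 ± 0.52 (SD, n = 4 mice), with 6 of 8 arrays below 0. Clone 7392 had -2.31 in W, 0.67 in X, 1.81 in Y and -0.69 in Z, a mean of -0.13 ± 1.77 (SD, n = 4 mice). The spread of clone 7392 between mice was the widest of the 5 member clones in brain, and its dye-swapped arrays gave one sign within each mouse, -2.40 and -2.21 in W and 0.66 and 2.95 in Y.

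Clone 19529 exceeded clone 18983 in brain in 4 of 4 mice, by 0.90 to 1.68 (mean 1.31 ± 0.33, SD). It exceeded clone 7392 in 3 of 4 mice, by -0.94 to 3.13 (mean 1.26 ± 1.83, SD). In heart, clone 18983 averaged 0.11 ± 0.32 (SD, n = 4 mice; limma, adjusted p = 0.897) with Cy3 arrays of 1.43 in Y and 1.19 in Z against Cy5 arrays of -1.40 and -0.08. Clone 7392 had both heart arrays in 2 mice only, with means of 0.78 in Y and -0.64 in Z, and was not tested there. In muscle, clone 18983 averaged 0.29 ± 0.50 (SD, n = 3 mice; limma, adjusted p = 0.954) and clone 7392 averaged 0.22 ± 0.60 (SD, n = 4 mice; limma, adjusted p = 0.963). Clone 19529 minus clone 18983 was 0.0078 ± 0.55 in heart (exact p = 0.875, n = 4 mice) and -0.28 ± 0.49 in muscle (exact p = 0.75, n = 3 mice, where 0.25 is the smallest possible).

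**Figure D2:**
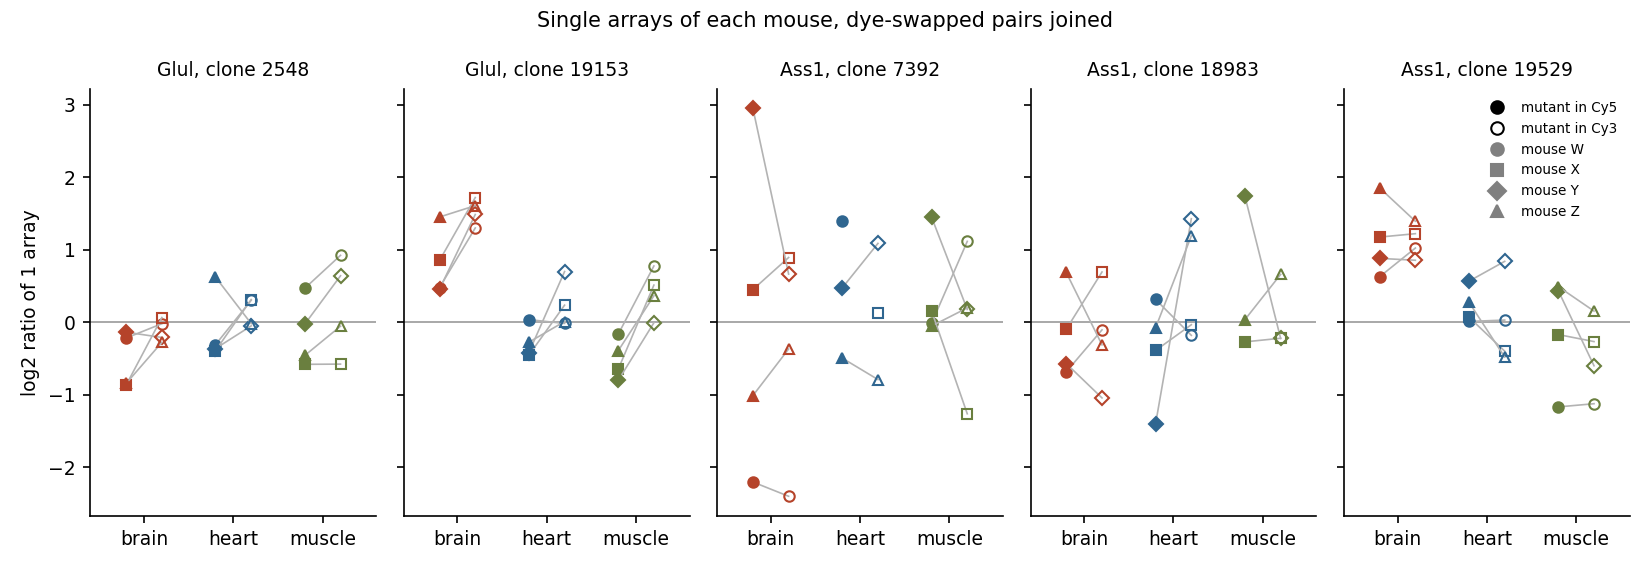
Log2 ratio of each single array for the 5 clones (panels) by organ, filled for the mutant in Cy5 and open for the mutant in Cy3, with the dye-swapped arrays of a mouse joined. In brain all 8 arrays of Glul clone 19153 and of Ass1 clone 19529 lie above 0, and for the Glul clone the open points lie above the filled ones in brain and muscle.

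Of the 5 member clones, 2 were above 0 in all 4 brain mice and 1 was below 0 in all 4. Over all 12083 clones with a value in every brain mouse, 10.1% were above 0 in all 4 and 15.7% below, and since brain values chose the pair nothing is read from this. Of the 4 member clones measured in every heart mouse, 0 lay above 0 in all 4 and 0 below, against 9.59% and 7.55% of 11299 clones. Of the 4 measured in every muscle mouse, again 0 lay on either side in all mice, against 6.93% and 4.92% of 9697 clones. At an adjusted p under 0.10, limma called 0 of 15846 clones in brain, 0 of 16241 in heart, 0 of 15210 in muscle and 0 of 13395 in heart minus muscle (0% each). The numbers of clones with an unadjusted p under 0.05 were 1480, 848, 521 and 678. SAM, the program family used for the study, was written anew in R on mouse means, with 16 sign flips and a limit of 0.10 on the share of false positives. It called 0 clones in brain, 1 in heart, which was no member, and 0 in muscle. The study used another cutoff, on a relative difference value, and more permutations, so these counts do not repeat its selection.

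How far clones of one symbol differ in general is given as background, and since brain values chose the pair nothing is read from it about the members there. Over 1925 pairs of clones with the same symbol and values in all 4 brain mice, the means of a pair differed by a median of 0.27 in size, and 142 pairs (7.38%) differed by more than 1. Of the 4 brain pairs among the Glul and Ass1 clones, 3 differed by more than 1. In heart 4.48% of 1673 pairs and in muscle 6.82% of 1247 pairs did so, and 0 of 2 member pairs in each. A symbol rests on the platform annotation, and whether the clones of a gene hold the same transcript was not analysed here.

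The pattern of a clone over the mice and organs was compared by the root mean square difference over up to 12 mouse means, which share the pool of an organ and the animals. The Glul clones differed by 0.95 from each other, and 63.9% of 5999 clones with all 12 values lay nearer to clone 19153 than clone 2548 did. Nearest to Glul clone 19153 was Atp5h clone 19212, a subunit of the mitochondrial ATP synthase, at a difference of 0.16, followed among named clones by Depdc5, Kat2b, Synpo2 and Hdlbp at 0.41 to 0.43. Nearest to Ass1 clone 19529 were Pdlim4 (clone 19178, difference 0.16), Commd3 (clone 19163, 0.18), Hdlbp (clone 19155, 0.23), Tmem109 (clone 19171, 0.25) and Pafah1b2 (clone 8322, 0.27). The median clone lay 0.90 from the Glul clone and 0.95 from the Ass1 clone, and Ass1 clones 18983 and 7392 lay 0.89 (over 11 values) and 1.43 (over 10 values) from clone 19529. For both high clones, clones of other genes thus lay nearer than clones of the same symbol. The nearest of 5999 clones was set here against the few that share a symbol, so this outcome is likely for any clone. It also held for Glul clone 2548, where 88.4% of clones lay nearer than clone 19153. The values compared include the brain values that chose the pair, so nothing is read from this.

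Nearest to Glul clone 2548 were Erp29, Tbl1x, Ubl5, Stx12 and Vim, at 0.17 to 0.22, with brain means of -0.46 to -0.12. Nearest to Ass1 clone 18983 were Csrp1, Manf, Atp5d, Npc2 and Fam151a, at 0.21 to 0.27 over 11 values. For Ass1 clone 7392 the nearest were Glis2, Cep120, Serping1, Smc1b and Eci2 at 0.60 to 0.71 over 10 values, so no named clone was close to it. No member clone was among the 10 nearest of another.

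Of the 5 named clones nearest to Ass1 clone 19529, 4 had numbers just above that of Glul clone 19153, and this stretch was looked at after its values had been seen. The stretch begins at the high Glul clone and ends at the last nearby clone with a brain mean over 0.8, so both ends are high by construction. From clone 19153 to clone 19221 there were 69 clones, 54 of them measured in at least 3 brain mice. Of these 54, 11 including Glul (20.4%) had a brain mean over 0.8, against 816 of 15846 clones (5.15%). Of 45 with a value in every brain mouse, 9 (20%) were over 0.5 in all 4, against 69 of 12083 clones (0.571%). Both shares count the Glul clone and the end clone, so they describe the chosen stretch and carry no test. The 10 high clones other than Glul carried the symbols Hdlbp, Commd3, Tmem109, Eef1g, Sprr1a, Pdlim4, Atp5h and Krt8 or, for clones 19176 and 19221, none. Their brain means ran from 0.85 to 1.26, while the other 43 clones of the stretch, split off by the same limit of 0.8, had a median of -0.08.

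Away from brain the median of the high clones of the stretch lay close to Ass1 clone 19529, and some of the clones departed from it. In heart 8 of 10 had a mean above 0 (-0.11 to 0.30), and in muscle 9 of 9 measured ones had a mean below 0 (-0.33 to -0.05). Of all genes, 53.5% lay above 0 in heart and 52.0% in muscle. The median of the high clones in muscle was -0.90 in mouse W, 0.11 in X, -0.19 in Y and 0.05 in Z. Ass1 clone 19529 had -1.15, -0.22, -0.08 and 0.32 there. The muscle count thus rests in large part on mouse W, and nothing is read from it. In brain the median of the high clones was 0.98 in W, 1.28 in X, 0.73 in Y and 1.45 in Z, beside 0.83, 1.20, 0.87 and 1.62 for Ass1 clone 19529. In muscle mouse W, 6 of 9 measured high clones lay under -0.8 and 3 did not, Atp5h clone 19212 at 0.12, Krt8 clone 19220 at -0.13 and the unnamed clone 19221 at -0.23. In heart mouse Y, where Ass1 clone 19529 was at 0.70, clones 19212 and 19221 were both at -0.23 and Eef1g clone 19172 at 0.07. Over all 12 mouse means, brain included, the root mean square difference from the median of the high clones was 0.20 for the Ass1 clone. It was 0.38 for Glul clone 19153, which departed from the median in muscle mouse W (0.30). These clones were picked by high brain values, so part of this closeness was fixed by the choice.

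**Figure D3:**
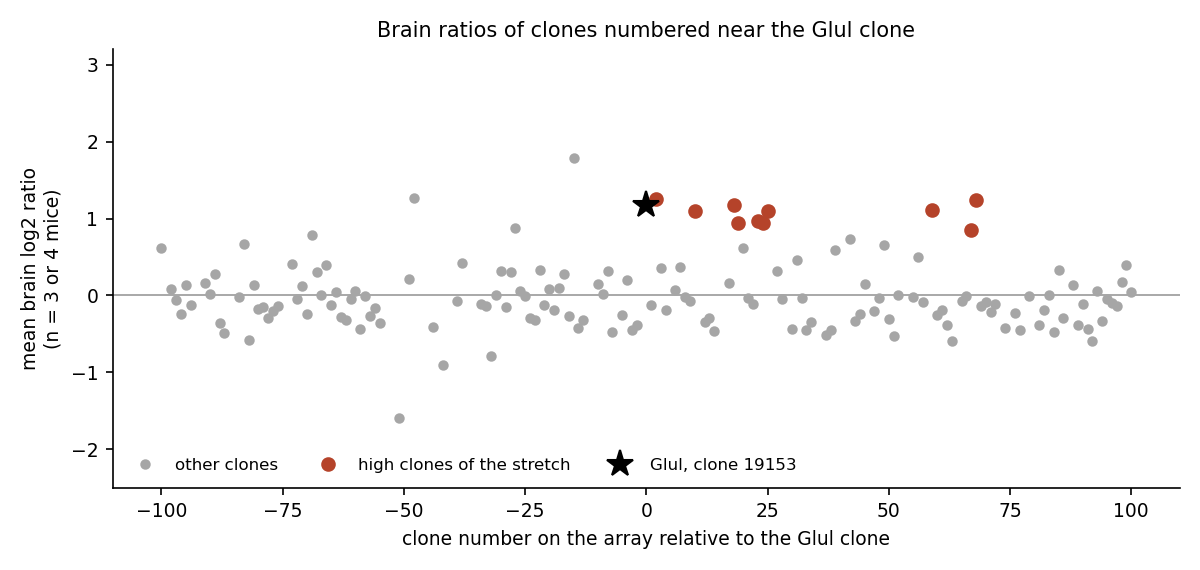
Mean brain log2 ratio (3 or 4 mice) of clones numbered within 100 of Glul clone 19153, against the difference in clone number. The star is the Glul clone, and the 10 red points between 0.85 and 1.26 at higher numbers are the high clones of the stretch, with most other clones near 0.

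Around the other member clones the clone numbers held few or no such values. Within 50 numbers of Glul clone 19153, 6 of 62 clones (9.68%) were over 0.5 in all 4 brain mice. The count was 0 of 49 around Glul clone 2548, 0 of 48 around Ass1 clone 7392, 1 of 87 around clone 18983 and 0 of 78 around clone 19529. Of all 12083 clones, 0.571% were over 0.5 in all 4 brain mice, so nothing is read from these counts of 0 and 1. By the brain mean alone, 15.4% of the 91 clones around clone 19529 were over 0.5, against 12.8% of all 15846. Of the 10 clones nearest to clone 19529 in pattern, 5 lay in the stretch above Glul clone 19153. Outside the stretch, 11 clones within 50 numbers of a member had a brain mean over 1 in size, 7 above 0 and 4 below. Near Glul clone 19153 they were Rcc1l (1.27 ± 0.31, SD, n = 3 mice) and the unnamed clone 19138 (1.78 ± 0.85, SD, n = 3). Near Glul clone 2548 they were Hs6st1 (1.26 ± 0.08, SD, n = 3), Pacsin2 (2.29 ± 4.21, SD, n = 4), Crk (-1.17 ± 0.72, SD, n = 4), Pdlim3 (-1.81 ± 1.80, SD, n = 3) and Ebp (-2.79 ± 4.56, SD, n = 3). Near the Ass1 clones they were Klk1b5 (1.12 ± 1.39, SD, n = 3) by clone 7392, Cep131 (-2.57 ± 5.48, SD, n = 3) by clone 18983, and the unnamed clones 19504 (2.62 ± 3.75, SD, n = 4) and 19569 (1.18 ± 1.23, SD, n = 4) by clone 19529. For 6 of these 11 the SD between mice was larger than the mean in size. No source used here says whether the clone number gives the place on the slide or a printing plate, and its part in the brain values was not tested.

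The median of the haemoglobin clones and 3 of the 5 member clones shared an order of the mice in brain, taken upward or downward. Few orders of 4 mice exist, and the share of all clones with this order was not counted. Since brain values also chose the pair, nothing is read from the shared order. Hba-a1, the alpha chain of haemoglobin and a gene of red cells, was measured by 6 clones, whose median in brain was -0.58 in W, -1.05 in X, -0.81 in Y and -1.59 in Z (mean -1.01 ± 0.43, SD, n = 4 mice). By size the order of the mice was Z, X, Y, W, and the same order held for both high clones, with Z the highest and W the lowest, and for Glul clone 2548, with Z the lowest. Ass1 clone 18983, highest in X and lowest in Y, and Ass1 clone 7392, highest in Y and lowest in W, did not follow it. In muscle the haemoglobin median was 1.25 in W, -0.19 in X, 0.88 in Y and -1.57 in Z, while Ass1 clone 19529 was lowest in W and highest in Z. The other high clone, Glul clone 19153, was instead highest in W (0.30) and lowest in Y (-0.41) in muscle. Glul clone 2548 was highest in W (0.70) and lowest in X (-0.58). In heart the haemoglobin median was -0.85 in W, -0.19 in X, -0.43 in Y and -0.60 in Z, an order that neither high clone followed. The other red cell markers were nearer to 0 in brain, with -0.06 ± 0.28 for Alas2 (SD, n = 4) and 0.39 ± 1.91 for Slc4a1 (SD, n = 3). The part of blood content in the values of the member clones was not tested.

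**Figure D4:**
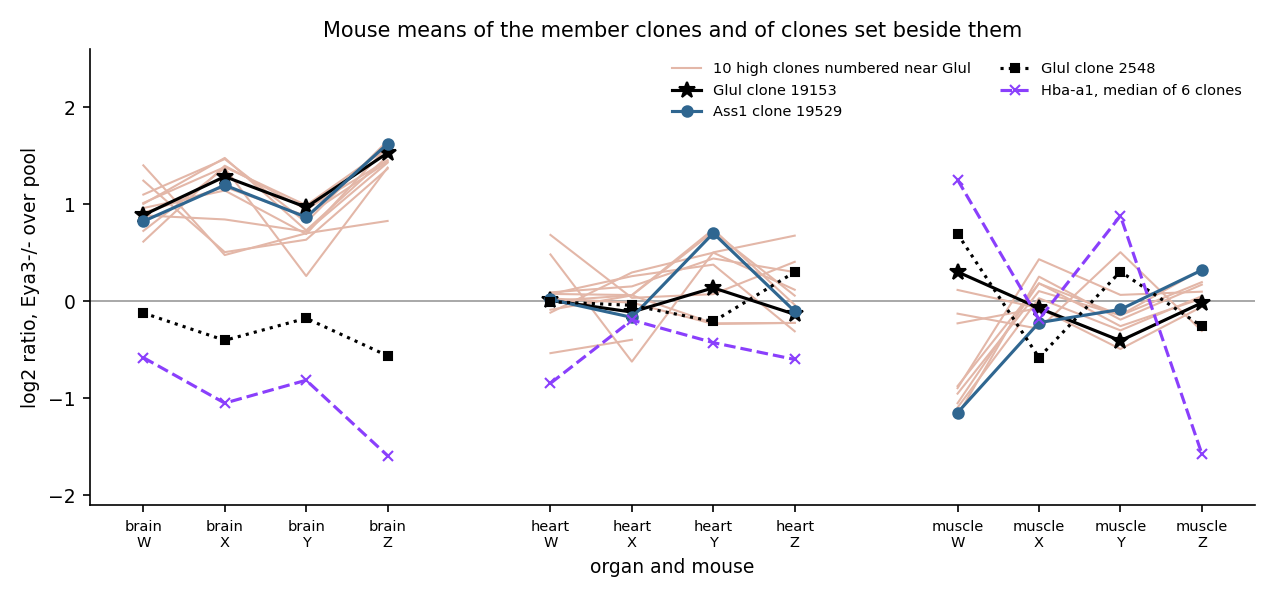
Log2 ratio of each mouse (mean of 2 arrays) in brain, heart and muscle for Glul clones 19153 and 2548, Ass1 clone 19529, the 10 high clones numbered above Glul and the median of 6 Hba-a1 clones. In brain the high clones lie above 0 with mouse Z highest for both member clones, where the haemoglobin median is lowest, and in muscle mouse W Ass1 clone 19529 is at -1.15 with most of the high clones, apart from Glul clone 19153 at 0.30.

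Genes of the same pathways, averaged over their clones and without Glul and Ass1, lay on both sides of 0. In these lists 0 genes were called by limma in any organ, and the median over all genes was -0.04 for brain, 0.02 for heart and 0.01 for muscle. Over all genes 44.7% lay above 0 in brain, 53.5% in heart and 52.0% in muscle. Of 28 listed enzymes of glutamine and glutamate metabolism 11 were measured in brain, 5 above 0 and 6 below, with a median of -0.02. They included Got1 and Got2, the aspartate aminotransferases, with -0.56 ± 0.32 and -0.42 ± 0.17 (SD, n = 4), and Gad1, which makes GABA from glutamate, with 0.49 ± 0.14 (SD, n = 4). The same list had 9 genes above and 7 below 0 in heart (median 0.04) and 7 above and 8 below in muscle (median -0.0010). Gpt2, an alanine aminotransferase, was at -0.80 ± 0.62 and Prodh, proline dehydrogenase, at 0.72 ± 0.47 in muscle (SD, n = 4; limma, adjusted p = 0.954 for both).

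The urea cycle and arginine synthesis were covered by few clones. In brain 4 of 10 listed genes were measured, 2 above and 2 below 0, among them Asl, the enzyme after Ass1 in the cycle, with 0.26 ± 0.59, and Arg2, the mitochondrial arginase, with -0.64 ± 0.79 (SD, n = 4). Asl was at -0.22 ± 0.54 in heart (SD, n = 3; limma, adjusted p = 0.857) and 0.11 ± 0.64 in muscle (SD, n = 4; limma, adjusted p = 0.986). Arg1, the cytosolic arginase, had a mean of -0.81 ± 0.54 in heart (SD, n = 4) with 4 of 4 mice below 0. Its 2 clones differed, with -1.06 and -0.22, and neither was called (limma, lowest adjusted p = 0.802). In heart the list had 2 of 5 genes above 0 (median -0.21) and in muscle 2 of 4 (median 0.02).

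Genes that use arginine, such as nitric oxide synthases, arginine methyltransferases and polyamine enzymes, had 6 of 18 measured members above 0 in brain (median -0.17), 9 of 19 in heart (median -0.16) and 7 of 17 in muscle (median -0.03). The members farthest from 0 in brain were Sat1, which acetylates polyamines, with -2.18 ± 1.56, and Azin2, an antizyme inhibitor, with 1.64 ± 0.88 (SD, n = 3 mice each). Transporters of glutamate, glutamine, arginine and ammonia had 8 of 21 members above 0 in brain (median -0.05), 11 of 21 in heart (median 0.01) and 10 of 19 in muscle (median 0.07). Slc38a5, a glutamine transporter, was at 1.20 ± 0.75 in brain (SD, n = 4), 0.83 ± 0.62 in heart and -2.04 ± 3.81 in muscle (SD, n = 3 each). In muscle 1 of its 3 mice was above 0 and 2 below, so its sign there is uncertain. Slc7a7, a carrier of cationic amino acids, was at 1.07 ± 0.98 in brain (SD, n = 4).

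**Figure D5:**
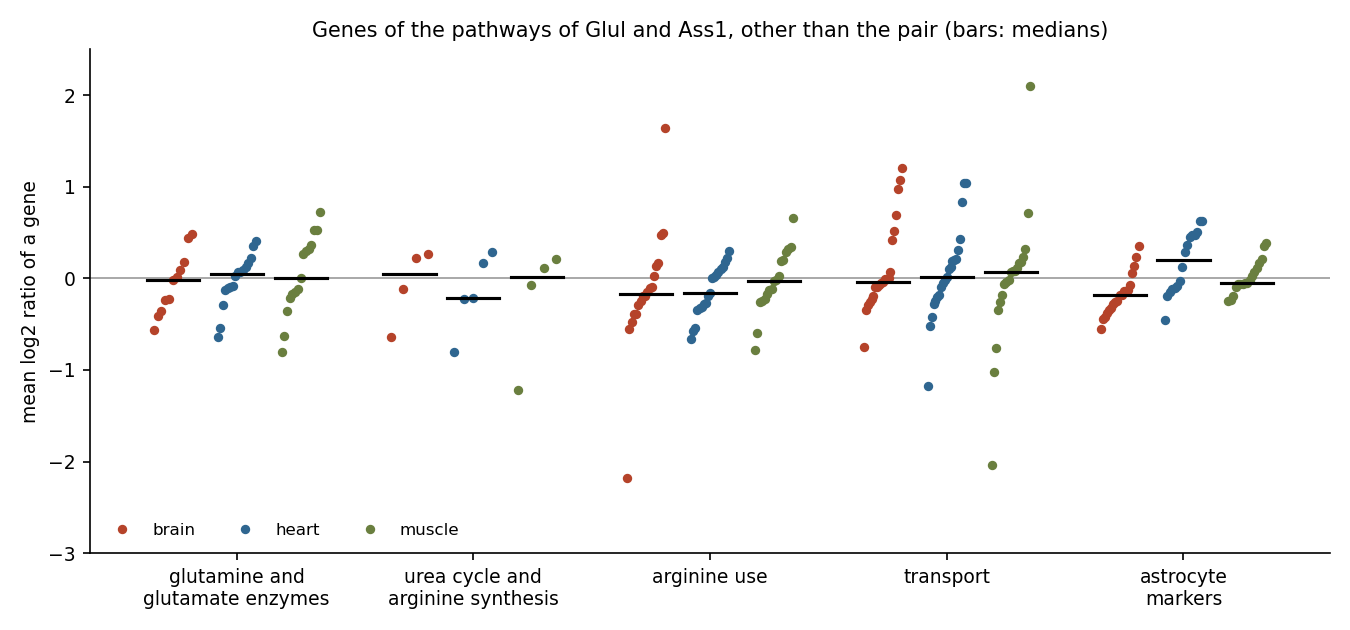
Mean log2 ratio of each measured gene (points, clones of one symbol averaged) of 4 pathway lists and of the astrocyte markers in brain, heart and muscle, without Glul and Ass1, with the median as a bar. Every median lies between -0.21 and 0.20.

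Astrocytes are the known site of Glul in brain, and their other markers lay on both sides of 0 there. Of 19 measured astrocyte markers 15 lay below 0 in brain, where 44.7% of all 7392 genes lay above 0 and most thus below. The median of the markers was -0.19, against a median of -0.04 over all genes. Those farthest from 0 were Sparc, a matrix protein, with -0.56 ± 0.18, the metallothioneins Mt3 with -0.45 ± 0.14 and Mt1 with -0.43 ± 0.17, and S100b, a calcium-binding protein, with -0.38 ± 0.18 (SD, n = 4 each, 4 of 4 mice below 0). The Glul clones were at -0.31 (clone 2548) and 1.17 (clone 19153). Since brain values chose the pair, nothing is read from the signs of the markers beside these clones. The 4 markers above 0 included Mt2, also a metallothionein, with 0.36 ± 0.56 (SD, n = 4, 2 of 4 mice above 0). The others were Acsl6 with 0.24 ± 0.29, Sox9 with 0.13 ± 0.77 (SD, n = 4 each) and Aldh1l1 with 0.06 ± 1.09 (SD, n = 3). Neuron markers had 9 of 10 and endothelial markers 8 of 9 members below 0 in brain (median -0.19 for both), oligodendrocyte markers 3 of 6 (median 0.01) and microglia and macrophage markers 6 of 9 (median -0.11). Hepatocyte markers, cells in which Ass1 is known to be abundant, had 3 of 6 below 0 in brain (median -0.16). The part of these cell types in the Glul and Ass1 values was not tested. In heart 9 of 16 astrocyte list genes lay above 0 (median 0.20), and in muscle 7 of 17 (median -0.05), against 53.5% and 52.0% of all genes.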

How the data were processed

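The authors hybridised total RNA of single mice and of wild-type pools to glass arrays of the Lion Bioscience 20K clone set, scanned them with GenePix and normalized them with MIDAS, by a method not given in the sources used here. The deposited values are log2 ratios, 1 column per array, and all columns were mapped to samples (0 left over). On arrays with the mutant in Cy5 all 1236 values beyond 10 in size lay above 0 and with the mutant in Cy3 all 1410 lay below, so the dye swap had already been turned and the ratios were used as deposited.

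The mean of both arrays stood for a mouse, and a test needed 3 or more mice with both values. Means were compared with 0 by limma 3.58.1 (lmFit, eBayes, Benjamini-Hochberg over all tested clones) in R 4.3.3, each organ apart, and called at an adjusted p under 0.10. Heart minus muscle was fitted by limma on the mouse means of both organs, taken as unpaired samples. The pool is 1 control sample, so a p measures the spread between mutant mice only. Clones of a gene were compared by exact sign-flip tests. The fits were tested on simulated data. Descriptions and figures used Python 3.11.15 and matplotlib 3.10.9.

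The members and the gene lists were chosen with earlier results of these data known. Named were all Glul and Ass1 clones, at most 4 members per list and organ with the largest means in size, the 5 named clones nearest to each member, and clones within 50 numbers of a member with a brain mean over 1 in size. The stretch of clone numbers above Glul was singled out after its values were seen, and its end was set by the brain mean limit of 0.8. Animal numbers in the labels pair heart and muscle, and the main fit of heart minus muscle did not use this pairing. The deviations of a mouse in heart and in muscle had a Pearson's r over clones of -0.0069 to 0.022. Even the dye-swapped arrays of a mouse hardly correlated, so this r cannot show whether the organs of a mouse deviate in common. A fit with the mouse as replicate block is given below as an alternative. The number of arrays limits the precision. Alternatives were single dye orientations, single arrays with and without a random block, SAM, stricter or looser handling of missing and extreme values, array centring and scaling, other thresholds and leaving out each mouse.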

Additional observations from a re-analysis of the deposited data

How the results depend on the processing

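Of 217 values of the member clones under alternatives, 22 turned in sign, 4 of them in brain, and 2 kept their sign but moved by more than 1 SD between mice, and no member was called in heart or muscle (lowest adjusted p = 0.586 by limma, against 0.897 as reported). The mean of Glul clone 19153 in brain was 0.81 with the mutant in Cy5 only and 1.53 with the mutant in Cy3 only. With Cy5 only, the heart mean turned to -0.11 for Glul clone 2548 and -0.39 for Ass1 clone 18983, and the muscle mean to -0.15 for Glul clone 2548. With Cy3 only, it turned to 0.23 in heart and 0.41 in muscle for Glul clone 19153 and to -0.0033 in heart for Ass1 clone 19529, and the difference between the Glul clones to 0.10 in heart and 0.18 in muscle. Leaving out each mouse gave ranges that crossed 0 in heart for Glul clone 2548 (-0.084 to 0.086), Glul clone 19153 (-0.079 to 0.013), Ass1 clone 18983 (-0.045 to 0.21) and Ass1 clone 19529 (-0.083 to 0.21). They did so in muscle for Glul clone 2548 (-0.18 to 0.25), Glul clone 19153 (-0.16 to 0.073) and Ass1 clone 19529 (-0.48 to 0.0063), in heart minus muscle for Glul clones 2548 (-0.23 to 0.19) and 19153 (-0.15 to 0.13), and in the difference between the Glul clones (-0.16 to 0.10 in heart, -0.29 to 0.12 in muscle). In brain they crossed 0 for Ass1 clones 7392 (-0.78 to 0.60) and 18983 (-0.34 to 0.030), and were 1.05 to 1.26 for Glul clone 19153 and 0.96 to 1.23 for Ass1 clone 19529. With Cy5 only, the brain mean of Ass1 clone 7392 was 0.045. With the mouse as replicate block, the paired fit of heart minus muscle called 0 clones and gave 0.02 for Glul clone 19153 and 0.40 for Ass1 clone 19529, and changed no other call. Of all clones, brain had 1 call with single arrays as samples and 9 with the mouse as random block, and heart had 1 call each with these settings, with values on all arrays and by SAM. The cause of these changes was not tested. No source used here gives the signal over background, so the number of arrays and the dye difference limit these values.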

Other observations

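Clones without a gene symbol were also near the high member clones. Of the 10 clones nearest to Glul clone 19153 over all mice and organs, 7 carried no symbol and 3 lay in the stretch of clone numbers above it, which held 32 of the 5999 clones compared (0.533%). Of the 10 nearest to Ass1 clone 19529, 3 carried no symbol and 5 lay in that stretch, which held 33 of the clones compared (0.55%). The stretch was chosen after its values were seen, so these counts carry no test.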
